A study of Drosophila melanogaster with 4 samples.

Results

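The 10 genes described here encode parts of the insulin and TOR pathways of the fruit fly and of its response to nutrients: InR, chico, Akt, foxo, Tsc1, S6k, Thor, Sesn, Lk6 and bgm. They were chosen by gene symbol, and all 10 were found among the 13932 genes of the expression table. RNA came from guts of female Drosophila melanogaster of the wild-type Oregon R-C genotype. The flies ate a chemical food without added manganese (2 libraries), and the control flies ate the same food with 5 ppm manganese (2 libraries). On each food, 10 females and 10 males mated and laid eggs for 5 days, and newly emerged females then spent another 5 days on fresh food, so the diet covered larval and early adult life. The table names the libraries of each diet as replicates B and C. Levels are RPKM, reads scaled to gene length and library depth, so levels of different genes can be compared. The foods differ by a single metal, and the comparison asks whether the transcripts of a pathway that senses nutrients differ with it.

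In flies, insulin-like peptides bind the receptor InR, which signals through the adaptor Chico to the kinase Akt. Akt phosphorylates the transcription factor FOXO and keeps it out of the nucleus, and it also relieves the block that Tsc1 and its partner, encoded by gig, place on the TOR kinase. Active TOR phosphorylates S6 kinase and the translation inhibitor 4E-BP, which the gene Thor encodes, and when insulin signalling is low FOXO raises transcription of Thor and InR. Much of this regulation acts on proteins by phosphorylation, which RNA levels do not measure. In the intestine the pathway is known for linking food supply to the growth of the gut and the division of its stem cells.

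The depth of the libraries, recovered from the steps between low RPKM values, was 26122210 and 26311006 reads in the no manganese libraries, against 24399759 and 28010953 reads in those with manganese. At that depth each of the 10 genes drew between 834 and 33140 reads in a library. Markers of the labelled tissue were present in every library: the enterocyte genes mex1 and Myo31DF lay between 266 and 317 RPKM and between 75.8 and 86.5 RPKM. They were not all even between the diets. Another enterocyte gene, Npc1b, had 352 and 367 RPKM without manganese, against 585 and 483 RPKM with it. The diets did not overlap in Npc1b, nor in mex1, which was higher without manganese. The 6 marker genes of enteroendocrine cells summed to between 158 and 173 RPKM, and pros among them had at most 0.386 RPKM. In 2 of them the diets did not overlap. AstA had 10.7 and 14.4 RPKM without manganese, against 19.1 and 17.8 RPKM with it. Dh31 lay the other way, with 8.48 and 12.8 RPKM against 7.34 and 8.19 RPKM. Such a gap, lower or higher without manganese, held for 15.2% and 21.7% of all tested genes. RNA of other tissues was uneven. Of 8 ovary genes, the summed level was 0.50 RPKM in library B and 509 RPKM in library C without manganese, against 1.14 and 3.06 RPKM in libraries B and C with it. The eggshell genes dec and Vm26Aa were listed at 0 in library B without manganese. The summed level of 6 fat body genes, among them those for yolk proteins, was 334 and 839 RPKM without manganese, against 212 and 490 RPKM with it. The part of ovary RNA in that sum was not tested. Marker sums were at most 2.69 RPKM for neurons and 1.12 RPKM for hemocytes. The gene for adipokinetic hormone, Akh, a marker of the corpora cardiaca near the foregut, had 5.07 and 5.03 RPKM without manganese, against 0.153 and 0.799 RPKM with it. Separate fly cultures are not named for the 2 libraries of a diet. The p-values therefore set a difference between the diets against the scatter estimated from these libraries, and that scatter may be technical.

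No difference between the diets passed the test in any of the 10 genes. Of the 7556 genes with a mean of at least 1 RPKM, 0 (0%) passed at an adjusted p under 0.05 in limma, a linear model fitted across all genes, and none of the 10 was among the 441 genes (5.84%) at an unadjusted p under 0.05. When recovered reads were tested with limma voom instead, 0 genes passed as well, and 438 were at an unadjusted p under 0.05. The adjusted p-values of the 10 genes in limma lay between 0.840 and 0.995. Their log2 fold changes, no manganese minus 5 ppm on the scale of log2(RPKM + 1), ran from -0.22 for InR to 0.27 for S6k. The median over the 10 was -0.05, and the median over all tested genes was 0.02. Standard errors ran from 0.09 for Tsc1 to 0.42 for Thor, and they count any difference between the letters as scatter. The intervals below thus say what sizes of change this fit of the 4 libraries could have missed.

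**Figure D1:**
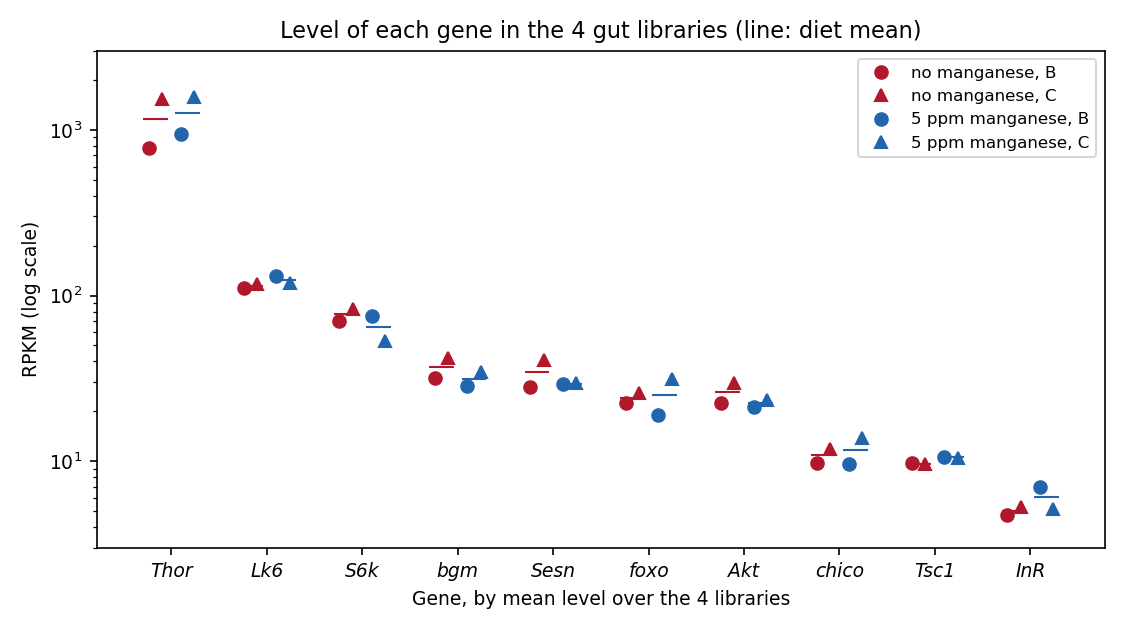
RPKM of the 10 genes in each library, on a log scale, with circles for letter B, triangles for letter C and a line at the mean of each diet (n = 2). Thor, at 779 to 1567 RPKM, lay above all the others and InR, at 4.76 to 6.95 RPKM, below them, and the diets overlapped in 8 of the 10 genes.

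The levels of the pathway spanned a wide range in the gut, and the highest and lowest genes kept their places. Thor, Lk6 and S6k led in that order in every library, and InR was always last. The values of Thor (779 to 1567 RPKM), of Lk6 (110.4 to 131 RPKM) and of S6k (53.3 to 83.3 RPKM) did not overlap with those of the next gene in the order. Next came bgm, Sesn, foxo and Akt, between 19.0 and 42.2 RPKM, whose ranges overlapped and whose order changed between libraries. Below them chico and Tsc1, between 9.55 and 13.8 RPKM, overlapped as well. Averaged over the 4 libraries, Thor stood at the 98.8th percentile of the tested genes and InR at the 30.8th.

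At the head of the pathway, InR encodes the insulin receptor. The gene (FBgn0283499) occupies bases 21570248 to 21619321 of chromosome 3R in dm6, on the minus strand, and has 11367 exon bases in 4 annotated transcripts. It had 4.76 and 5.29 RPKM in libraries B and C without manganese, against 6.95 and 5.17 RPKM in B and C with it. Only library B with manganese stood high, and the diets overlapped. Means were 5.02 ± 0.370 RPKM without manganese and 6.06 ± 1.26 RPKM with it (SD, n = 2 each). Its log2 fold change was -0.22, with a 95% interval from -0.64 to 0.21 (limma, adjusted p = 0.840). Within letter B the difference was -0.46 and within letter C 0.03. The interval corresponds to 0.640 to 1.15 times the level with manganese.

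The gene chico (FBgn0024248) encodes the insulin receptor substrate that couples the receptor to PI3-kinase. It occupies bases 10242512 to 10247078 of chromosome 2L, minus strand. An antisense gene, asRNA:CR44995, covers 10.6% of its 3578 exon bases, and since no source used here says whether counting used strand, reads of that stretch may come from either gene. It had 9.74 and 11.9 RPKM without manganese, against 9.55 and 13.8 RPKM with it. Both C libraries were above both B libraries, and the diets overlapped. Between the diets the log2 fold change was -0.08 (95% interval -0.62 to 0.46, limma, adjusted p = 0.968), 0.02 within letter B and -0.19 within letter C.

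Akt (FBgn0010379) encodes the protein kinase B that passes the signal on to FOXO and TOR. It occupies bases 16099228 to 16105670 of chromosome 3R, plus strand. Akt had 22.4 and 29.8 RPKM without manganese, against 21.4 and 23.4 RPKM with it. Library C without manganese stood apart from the other three, and this is the library with ovary RNA. The part of that RNA in the value was not tested. Its log2 fold change was 0.20 (95% interval -0.23 to 0.64, limma, adjusted p = 0.849), positive within both letters (0.07 in B and 0.34 in C). Without that library the log2 fold change of Akt was 0.0059.

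The forkhead factor gene foxo (FBgn0038197) occupies bases 14056945 to 14087978 of chromosome 3R, plus strand. It had 22.5 and 25.8 RPKM without manganese, against 19.0 and 31.2 RPKM with it. The lowest and the highest value both belonged to the diet with manganese, so the values without it lay within their range. The mean was 24.1 ± 2.32 RPKM without manganese and 25.1 ± 8.63 RPKM with it (SD, n = 2 each). This gave a log2 fold change of -0.02 (95% interval -0.68 to 0.65, limma, adjusted p = 0.995). Within letter B it was 0.23 and within letter C -0.26, of opposite sign.

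On the TOR branch, Tsc1 (FBgn0026317) encodes the scaffold of the complex that holds TOR inactive. Its single annotated transcript comes from bases 24130307 to 24134654 of chromosome 3R, plus strand. Tsc1 had 9.75 and 9.61 RPKM without manganese, against 10.7 and 10.5 RPKM with it. The diets did not overlap, and libraries of the same diet, with 985 to 1148 reads each, differed by less than the counting error of that many reads. The log2 fold change was -0.12 (95% interval -0.36 to 0.12, limma, adjusted p = 0.845), the narrowest interval of the 10 genes, and -0.12 within each letter. Its partner gig, the fly Tsc2, had 8.45 and 8.0 RPKM without manganese, against 9.73 and 9.24 RPKM with it, a log2 fold change of -0.18 ± 0.10 SE (limma, adjusted p = 0.802). The ratio of Tsc1 to gig was 1.15 and 1.20 without manganese and 1.10 and 1.14 with it, so the transcripts of both partners of the complex kept near equal levels per length.

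S6k (FBgn0283472) encodes the kinase of ribosomal protein S6, a substrate of TOR. The gene occupies bases 5797549 to 5810931 of chromosome 3L, minus strand. S6k had 70.3 and 83.3 RPKM without manganese, against 75.4 and 53.3 RPKM with it. Library C with manganese was the low one, and the other three lay close together. The largest log2 fold change in size of the 10 genes was that of S6k, 0.27 (95% interval -0.27 to 0.81, limma, adjusted p = 0.844). Within letter C the difference was 0.63 and within letter B -0.10, and without library C of the manganese diet the value was 0.02. The tested genes with the nearest pattern over the 4 libraries were CG7011, Xpac and path, with root mean square differences of 0.01, 0.03 and 0.03 in centred log2(RPKM + 1). Of these, path encodes an amino acid transporter, with 52.7 and 61.3 RPKM without manganese, against 54.9 and 37.5 RPKM with it.

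Thor (FBgn0261560), the gene for 4E-BP, occupies bases 3478434 to 3479612 of chromosome 2L, plus strand, and has 755 exon bases in 2 exon blocks. It had 779 and 1531 RPKM without manganese, against 946 and 1567 RPKM with it. Each C library was well above each B library, whatever the diet. Library C was 1.97 times library B without manganese and 1.66 times with it. Means were 1155 ± 532 RPKM without manganese and 1257 ± 439 RPKM with it (SD, n = 2 each). The diets differed in Thor by a log2 fold change of -0.16 (limma, adjusted p = 0.976), -0.28 within letter B and -0.03 within letter C. The spread between letters was large, and the 95% interval reached from -1.27 to 0.96, or from 0.414 to 1.94 times the level with manganese. The cap-binding protein that 4E-BP blocks is encoded by eIF4E1, at 105 and 107 RPKM without manganese and 97.2 and 99.9 RPKM with it. Transcripts of Thor per eIF4E1 transcript thus numbered 7.41 and 14.3 without manganese and 9.74 and 15.7 with it, per length.

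Sesn (FBgn0034897) encodes sestrin, a stress-induced inhibitor of TOR. The gene occupies bases 23713900 to 23734846 of chromosome 2R, plus strand. Exons of other genes on the same strand cover 65.1% of its 4760 exon bases, and CG46429 is among the genes that overlap it. The value of Sesn thus depends on how shared reads were counted, which no source used here states. Sesn had 28.0 and 40.7 RPKM without manganese, against 29.3 and 29.6 RPKM with it. Library C without manganese was again the high one, and it was also the highest for S6k and bgm. This library holds the ovary RNA, and the part of that RNA in the value of Sesn was not tested. The log2 fold change of Sesn was 0.19 (95% interval -0.32 to 0.71, limma, adjusted p = 0.883), and without that library it was -0.07.

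Lk6 (FBgn0017581) encodes the fly relative of the mammalian Mnk kinases, which phosphorylates the cap-binding protein eIF4E. The gene occupies bases 11750931 to 11764457 of chromosome 3R, minus strand. Lk6 had 110.4 and 117 RPKM without manganese, against 131 and 119 RPKM with it. The diets did not overlap, but the C libraries were close together. Between diets Lk6 had a log2 fold change of -0.13 (95% interval -0.43 to 0.16, limma, adjusted p = 0.861), -0.25 within letter B and -0.02 within letter C.

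The gene bgm, bubblegum (FBgn0027348), encodes an acyl-CoA synthetase that activates very long chain fatty acids. It occupies bases 14013004 to 14019328 of chromosome 2L, plus strand. The gene had 31.8 and 42.2 RPKM without manganese, against 28.5 and 34.5 RPKM with it. The value without manganese was above that with manganese within each letter, by 0.15 in B and 0.28 in C, while the diets overlapped because both C libraries were high. Over both letters the log2 fold change was 0.22 (95% interval -0.26 to 0.70, limma, adjusted p = 0.858). Without library C of the no manganese diet it was 0.02.

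**Figure D2:**
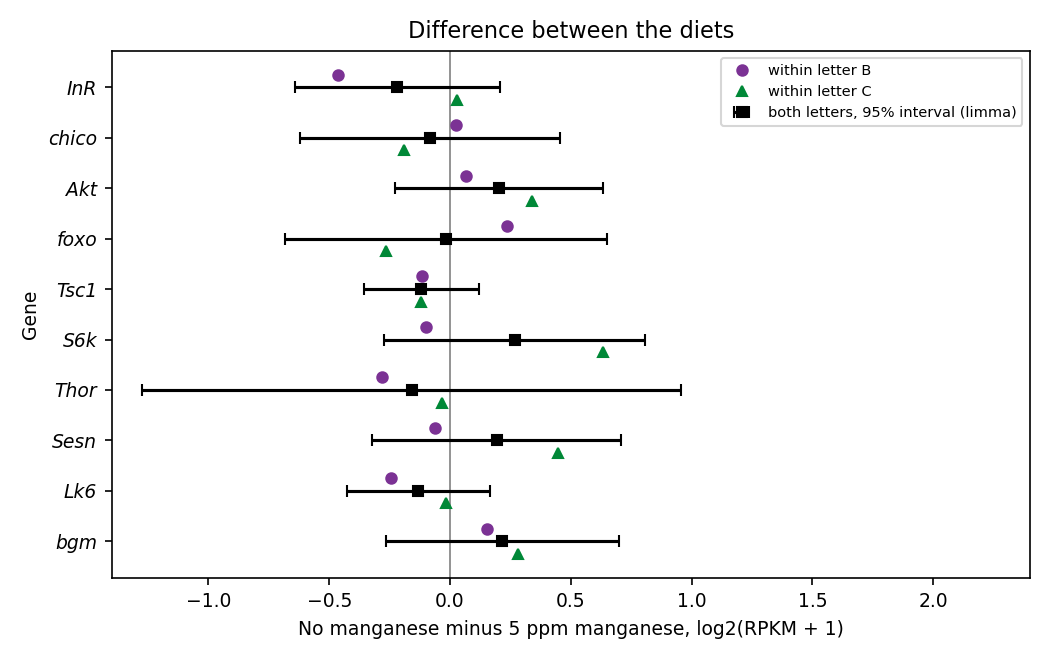
Difference between the diets for each gene, no manganese minus 5 ppm manganese in log2(RPKM + 1), with squares for the limma estimate and its 95% interval, circles for letter B and triangles for letter C. Every interval includes 0, and the widest is that of Thor, from -1.27 to 0.96.

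Across the 10 genes, 4 were higher and 6 lower without manganese in the fit. In 2 genes, Tsc1 and Lk6, every value without manganese was below every value with it, and in 0 genes above. Among all tested genes 15.2% were below and 21.7% above in this way. The difference had the same sign within both letters in 5 of the 10 genes and opposite signs in the other 5, and it had the same sign in 60.4% of all tested genes. With 10 genes, these counts are near the shares of all genes or under them. In gut tissue, a lower level of a transcript through fewer cells that carry it and through less RNA per cell cannot be told apart. Fold changes ran with exon length over 7506 genes (Spearman's rho -0.27 across genes, which share these 4 libraries), and except for Thor the 10 genes are long, with 2636 to 11367 exon bases. The 2607 tested genes in that range had a median log2 fold change of -0.02, and the 9 genes within it also had -0.02.

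The difference between letters was larger in size than that between diets in 6 of the 10 genes, and in 53.8% of all tested genes. In 6 of the 10 genes, chico, Akt, foxo, Thor, Sesn and bgm, both C libraries were above both B libraries, and in 0 genes were both below. Among all tested genes 23.5% had both C libraries above and 20.2% had both below. The median difference of C minus B, averaged over the diets, was 0.26 for the 10 genes and 0.01 for all tested genes on the scale of log2(RPKM + 1). Thor had the largest such difference, 0.85, and foxo followed with 0.44 and chico with 0.38. In Sesn the C library exceeded the B library by 0.52 without manganese and by 0.01 with it. With median or quantile scaling the count of genes higher in C was again 6, beside 20.5% and 20.7% of all tested genes. With 1 library left out it was 6 to 8, beside 34.5% to 41.6% of all genes, since fewer values then have to be apart. The column headers write Rep before the letter, and their closing numbers place the libraries of the same letter next to each other. No source used here says whether libraries of the same letter were raised or prepared together, so the pattern is given with no test.

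Markers of other tissues moved with the letters too. Of the 6 fat body genes, 5 were higher in both C libraries than in both B libraries, with sums of 839 and 490 RPKM in the C libraries without and with manganese, against 334 and 212 RPKM in the B libraries. Of the 8 ovary genes, 6 were higher in this way, although the sum in library C with manganese was 3.06 RPKM. The summed level of 6 enterocyte genes, most of it from the trypsin genes alphaTry and betaTry, was 9352 and 9325 RPKM in the C libraries without and with manganese, against 12539 and 11385 RPKM in the B libraries. Only 2 of the 6, the trypsin genes, were lower in both C libraries, and 1, nub, was higher. In mex1, Myo31DF and Npc1b the letters overlapped. The sum of 6 visceral muscle genes was 472 and 465 RPKM in the C libraries, against 407 and 443 RPKM in the B libraries. The part of these tissues in the letter differences of Thor, foxo, chico and the others was not tested.

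**Figure D3:**
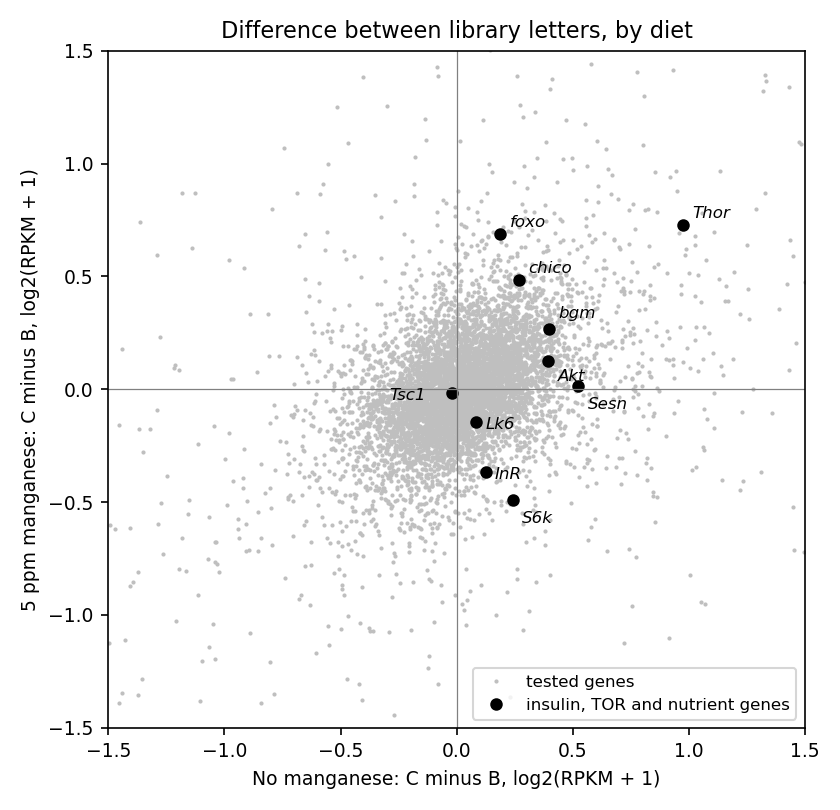
Difference between library C and library B in log2(RPKM + 1), without manganese on the horizontal axis and with 5 ppm manganese on the vertical axis, for the 10 genes (black) and the other tested genes (grey, 121 genes lie outside the axes). Thor stands at the upper right, at 0.97 and 0.73, and Tsc1 near the origin.

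A transcript of the cap-dependent translation list, Paip2, chosen after its values were seen, had a like pattern to Thor. It encodes an inhibitor of the poly(A)-binding protein and had 43.7 and 142 RPKM without manganese, against 58.9 and 162 RPKM with it. Library C was thus 3.25 times library B without manganese and 2.74 times with it. The gene of its target, pAbp, had 724 and 787 RPKM without manganese, against 747 and 618 RPKM with it. There the letters overlapped.

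**Figure D4:**
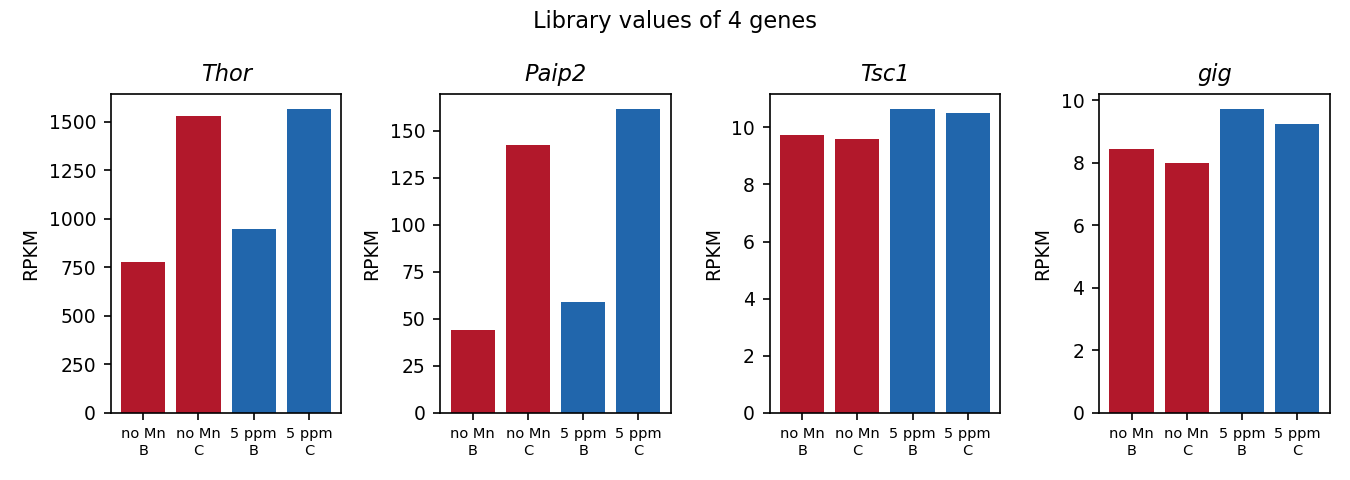
RPKM by library for Thor, Paip2, Tsc1 and gig, with bars from 0 and the no manganese libraries (red) left of those with 5 ppm manganese (blue). Thor and Paip2 are high in both C libraries, at 1531 and 1567 RPKM and at 142 and 162 RPKM, while Tsc1 and gig are lower in both no manganese libraries.

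Other genes of the pathway were read from lists written for this comparison. Ligands were scarce in the gut: of 8 genes for insulin-like peptides only Ilp3 reached the level tested, with 1.27 and 1.47 RPKM without manganese, against 1.75 and 0.761 RPKM with it. The others had at most 0.992 RPKM in any library, and Ilp1 and Ilp7 were listed at 0 in all 4. ImpL2 encodes a secreted protein that binds insulin-like peptides and dampens the pathway. It had 70.8 and 87.7 RPKM without manganese, against 56.5 and 50.2 RPKM with it, with no overlap between the diets. Its log2 fold change was 0.56 ± 0.15 SE (limma, unadjusted p = 0.0156, adjusted p = 0.802), so it did not pass. It was higher without manganese within both letters, by 0.32 in B and 0.79 in C.

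Of 12 tested genes of insulin signal transduction, 6 were higher and 6 lower without manganese, 0 passed in either direction, and the median log2 fold change was 0.05. The 14-3-3 protein gene 14-3-3epsilon, whose product binds phosphorylated FOXO, had 208 and 203 RPKM without manganese, against 164 and 171 RPKM with it, with a log2 fold change of 0.29 ± 0.10 SE (limma, unadjusted p = 0.0414, adjusted p = 0.802). The scaffold gene melt had 7.20 and 7.06 RPKM without manganese, against 9.07 and 7.80 RPKM with it.

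Of 21 tested genes of the TOR complexes and of amino acid sensing, 6 were higher and 15 lower, 0 passed in either direction, and the median was -0.09. Of all 7556 tested genes 3298 were lower. The TOR list had a median of 2702 exon bases, against 2024 for all tested genes, and the part of length was not tested. Without overlap between the diets, 6 of the 21 were lower and 2 higher, where 15.2% and 21.7% of all tested genes were. The kinase gene mTor had 7.64 and 8.33 RPKM without manganese, against 9.64 and 9.0 RPKM with it (log2 fold change -0.20 ± 0.10 SE, limma, adjusted p = 0.802). Along with mTor and gig, the genes Iml1, raptor, Rheb and Wdr24 were lower without overlap, with log2 fold changes from -0.29 for raptor to -0.05 for Wdr24. On the other side, scyl, a hypoxia-induced inhibitor of TOR, had 171 and 131 RPKM without manganese, against 121 and 114 RPKM with it (0.35 ± 0.16 SE, limma, adjusted p = 0.802).

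Of 16 tested genes of AMPK and autophagy, 7 were higher and 9 lower, 0 passed, and the median was -0.02. Mitf, the fly TFEB factor of lysosome genes, had 35.4 and 37.1 RPKM without manganese, against 29.1 and 31.2 RPKM with it (0.26 ± 0.10 SE, limma, unadjusted p = 0.0499, adjusted p = 0.802). SNF4Agamma, a subunit of AMPK, and the autophagy gene Atg9 had log2 fold changes of -0.28 and -0.14. Of 10 tested genes of cap-dependent translation, 6 were higher and 4 lower, 0 passed, and the median was 0.04. Those with the smallest p-values, eIF4EHP, eIF4G2 and eIF4E1, had log2 fold changes of 0.15, -0.16 and 0.11. Of 8 tested acyl-CoA synthetases other than bgm, 1 was higher and 7 lower, 0 passed, and the median was -0.18, where bgm itself was at 0.22. Of all 7556 tested genes 3298 were lower. Acsx3, Fatp1 and Fatp3 had log2 fold changes of -0.24, -0.18 and -0.33, and hll, a relative of bgm, had at most 0.130 RPKM.

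Genes tied to FOXO, fasting and sugar sensing lay mostly above 0, 7 of 9 tested being higher and 2 lower, with 0 passed and a median of 0.18, where 4258 of all 7556 tested genes were higher. In 4 of the 9 the diets did not overlap and the values without manganese were higher, which held for 21.7% of all tested genes. The 2 lower genes were bmm and bigmax, with log2 fold changes of -0.60 and -0.04. The lipase gene bmm was lower within both letters, by -0.76 in B and -0.43 in C, though the diets overlapped (limma, adjusted p = 0.824). The sugar-induced transcription factor gene sug, sugarbabe, had 19.98 and 48.3 RPKM without manganese, against 4.75 and 16.6 RPKM with it. The diets did not overlap, and library C was 2.42 times library B without manganese and 3.50 times with it. The summed level of the 6 fat body genes was 334 and 839 RPKM without manganese, against 212 and 490 RPKM with it. That sum, most of it from Yp1, Yp2 and Yp3, differed in the same directions by letter and, within each letter, by diet. Of the 6 genes, 4 were higher and 2 lower without manganese by log2 fold change, the lower ones being the genes Lsp2 and fit. Lsp2 had 0.634 and 0.875 RPKM without manganese, against 0.910 and 2.15 RPKM with it. The part of fat body RNA in the values of sug was not tested, nor was that of ovary RNA in the fat body sum. The log2 fold change of sug was 1.68 ± 0.68 SE (95% interval -0.11 to 3.47, limma, adjusted p = 0.802). Another sugar-responsive factor, cbt, had 24.1 and 24.2 RPKM without manganese, against 13.4 and 21.1 RPKM with it. Lip4, an intestinal lipase under FOXO control in flies, had 17.5 and 16.0 RPKM without manganese, against 14.3 and 5.73 RPKM with it. Library C with manganese was the low one, and the log2 fold change of Lip4 was 0.80 ± 0.40 SE (limma, adjusted p = 0.802), 0.27 within letter B and 1.34 within letter C.

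**Figure D5:**
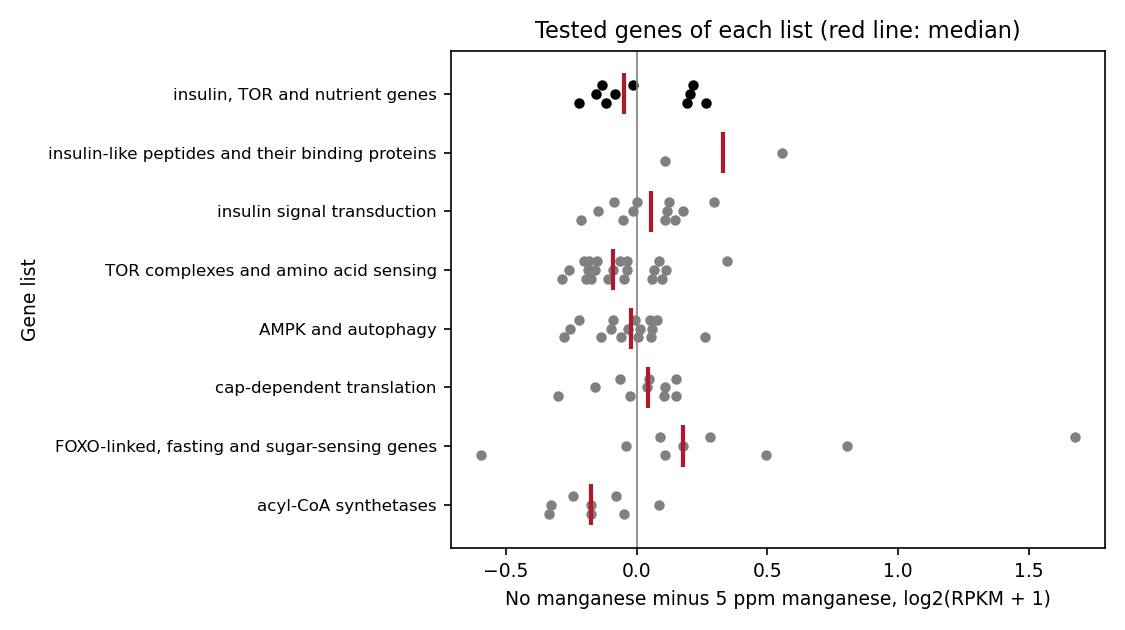
Log2 fold change, no manganese minus 5 ppm manganese in log2(RPKM + 1), of each tested gene in 8 lists, with a red line at the median of a list. The medians lie between -0.18 for the acyl-CoA synthetases and 0.33 for the insulin-like peptides and their binding proteins, a list with 2 tested genes.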

How the data were processed

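Gut RNA of 4 libraries was measured. The deposited table gives RPKM, computed by the authors. Per the submitters' processing notes, dm6, STAR 2.5.2b and DESeq2 were used, with no step named for any. No source used here gives the counting program, annotation or strand setting. Columns name a diet, a replicate letter (RepB or RepC) and a serial number. Each was assigned to its diet and to no numbered sample, and 0 columns of sample values were unused. Symbols, positions and exon lengths came from Ensembl 115 (BDGP6, dm6 coordinates), and 13852 identifiers had a symbol. Read divisors made 84.5% to 85.5% of values under 20 reads fall within 0.02 of a whole number, so recovered reads are approximate. R 4.3.3 and limma 3.58.1 were run on log2(RPKM + 1) for genes with a mean of at least 1 RPKM, with a trended prior and 2 residual degrees of freedom. The P values were 2-sided, adjusted by Benjamini-Hochberg over 7556 genes at a threshold of 0.05. This scale understates changes of low genes. An exact permutation test of 2 libraries against 2 cannot reach 0.05 and was not used. The fit was tested on simulated data. All members were named, with the 3 tested genes of smallest p in each list and the 3 nearest in pattern to the member with the largest change. Iml1, raptor, Rheb, Wdr24, hll, Paip2, pAbp, Akh, Atg13, Atg17, bmm, bigmax and pdgy were named after their values were seen. So were the marker genes Npc1b, nub, AstA, Dh31, Yp1, Yp2, Yp3, Lsp2 and fit. Of listed genes, 6 had no row under their listed name. One gene that this rule names is not reported here. The members and lists were chosen with earlier results of these data known.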

Additional observations from a re-analysis of the deposited data

How the results depend on the processing

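None of the 10 genes passed at an adjusted p under 0.05 in any of the 14 alternative settings (limma, lowest adjusted p 0.457). Across them InR, Akt, Tsc1, S6k, Lk6 and bgm kept their sign. With 1 library left out, where a lone library is taken to vary as the other diet does, InR ran from -0.40 to -0.035, Akt from 0.0059 to 0.40, S6k from 0.02 to 0.51, Lk6 from -0.20 to -0.06, bgm from 0.02 to 0.42 and Tsc1 from -0.13 to -0.11. Without library B of the no manganese diet Akt, bgm and Sesn reached the top of their ranges, at 0.40, 0.42 and 0.46. S6k reached 0.51 without library B of the diet with manganese. In the same way chico ran from -0.33 to 0.16, foxo from -0.36 to 0.33, Thor from -0.64 to 0.33 and Sesn from -0.068 to 0.46. The signs of chico, foxo and Thor turned without library B of the no manganese diet and without library C of the diet with manganese, and that of Sesn turned without library C of the no manganese diet. On recovered reads foxo was at 0.0039. The median of the 10 ran from -0.11 to 0.20. With 1 library left out, 2 to 5 of the 10 were lower without manganese with no overlap, beside 26.7% to 33.7% of all tested genes. In the same settings 0 to 4 were higher, beside 36.6% to 40.4% of all tested genes. These counts and shares are larger since fewer values must be apart. Under quantile scaling 3 were lower and 0 higher, beside 18.9% and 18.3% of all tested genes. The number of genes past the threshold over the whole table was 0 to 11, with 11 without library B and 5 without library C of the no manganese diet, and the cause was not tested. Genes at an unadjusted p under 0.05 numbered 441 in the main comparison and 683 with no filter on low values, where more genes were tested. With the letter as a replicate block 0 genes passed (smallest adjusted p 0.0659) and 878 were at an unadjusted p under 0.05. In that fit the smallest unadjusted p of the 10 genes was 0.067, for bgm, and that of Thor was 0.35 (limma). The letters are not known to pair the libraries. Deviations from the diet means in libraries of the same letter correlated at 0.34 across 7556 genes and at 0.52 across the 10 genes. Counts by overlap under other scalings or with a library left out were added after the data were seen. With 2 libraries for each diet, the precision of these values is limited by their number and, for genes with few reads, by depth.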

Other observations

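Other lists held genes that differed between the letters, given here as values with no test. Of the 8 tested acyl-CoA synthetases, 4 were above in both C libraries and 0 below, of the 16 genes of AMPK and autophagy 5 were above and 5 below, and of the 9 genes tied to FOXO, fasting and sugar sensing 2 were above and 2 below. Among all tested genes 23.5% were above and 20.2% below. The genes named next were picked after their values were seen. The acyl-CoA synthetase gene pdgy had 14.3 and 28.7 RPKM without manganese, against 14.8 and 24.6 RPKM with it. The autophagy gene Atg17 had 13.5 and 24.05 RPKM without manganese, against 16.0 and 18.7 RPKM with it. Another autophagy gene, Atg13, lay the other way, with 30.4 and 17.01 RPKM without manganese, against 32.0 and 23.4 RPKM with it. So did the lipase gene bmm, brummer, of the FOXO, fasting and sugar list, with 33.8 and 21.4 RPKM without manganese, against 57.8 and 29.3 RPKM with it.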
